A study of Mus musculus with 10 samples.

Results

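A set of genes best known from macrophages was examined in RNA-seq libraries of sorted mouse regulatory T cells (Treg cells), the CD4 T cells that restrain immune responses. The 9 genes were Cybb, Csf1r, Vcam1, C1qb, Ctss, Cebpa, Cebpb, Lyz2 and Cd68, and all 9 were found by symbol among the 13252 genes of the deposited table. All 9 had a mean of at least 10 normalized counts, the minimum for testing. The question was whether these genes rise and fall together from library to library, as reads of 1 carried-over cell type would, or singly.

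The 2 groups were both Treg cells sorted for CD4 and a red reporter, RFP. One group was CD4+RFP+GFP- cells, which the labels call Helios-, and the other was CD4+RFP+GFP+ cells, called Helios+, with 5 libraries in each group, numbered 1 to 5. The labels tie GFP to Helios, the Ikaros-type zinc finger factor that Ikzf2 encodes, while the meaning of the RFP signal is not given. The design text of the series names wild-type and knockout cells instead, while the single samples are labelled by the sort, so the groups here are 2 sorted populations. Strain, age, sex, tissue and any treatment are not given in the sources used. Whether the 5 libraries of a group came from separate mice is not given either, and the p-values reflect only how these libraries spread, which may be technical variation.

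The genes cover several parts of the macrophage programme. Cebpa and Cebpb encode C/EBP transcription factors that drive myeloid differentiation. Csf1r encodes the receptor through which CSF1 and IL-34 keep macrophages alive. C1qb and Vcam1 mark tissue-resident macrophages such as those of splenic red pulp, while Cybb, Lyz2, Ctss and Cd68 encode effectors and constituents of the phagosome and lysosome. Some of them are not exclusive to macrophages: Cybb and Ctss are also expressed by B cells and dendritic cells.

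The libraries held 4872348 to 6948692 reads, recovered from the deposited values as described under the processing. The sort was visible in the table, as Ikzf2 ranged from 418 to 572 normalized counts in the Helios- and from 9667 to 10906 in the Helios+ libraries. Foxp3, the defining transcription factor of Treg cells, lay between 3284 and 3833 in all 10 libraries. The 45S ribosomal RNA precursor Rn45s took 8.54% to 18.6% of the reads of a library.

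Of the 9 genes, 5 were higher in Helios+ than in Helios- cells by limma's test at an adjusted p under 0.05, and none was lower. They were Cebpa, Cebpb, Cybb, Csf1r and Vcam1, and edgeR and DESeq2 on the recovered reads called the same 5 and none lower. Over all 10718 genes tested, 24.8% were called in either direction, 14.1% higher and 10.7% lower, so calls were common in this comparison. The median log2 change of the 9 genes was 0.99, against -0.02 over all genes tested. The 9 genes were chosen with earlier results of these data known, so setting them against all genes is a description and not a test. C1qb, Ctss, Lyz2 and Cd68 did not pass limma's test. These fits left out the pairing of libraries of equal number. With the replicate number as a block in limma, Lyz2 was called higher as well, and 18.9% of all genes were called higher. In these bulk libraries, a change in the number of cells of a type and a change in RNA per cell cannot be told apart.

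**Figure D1:**
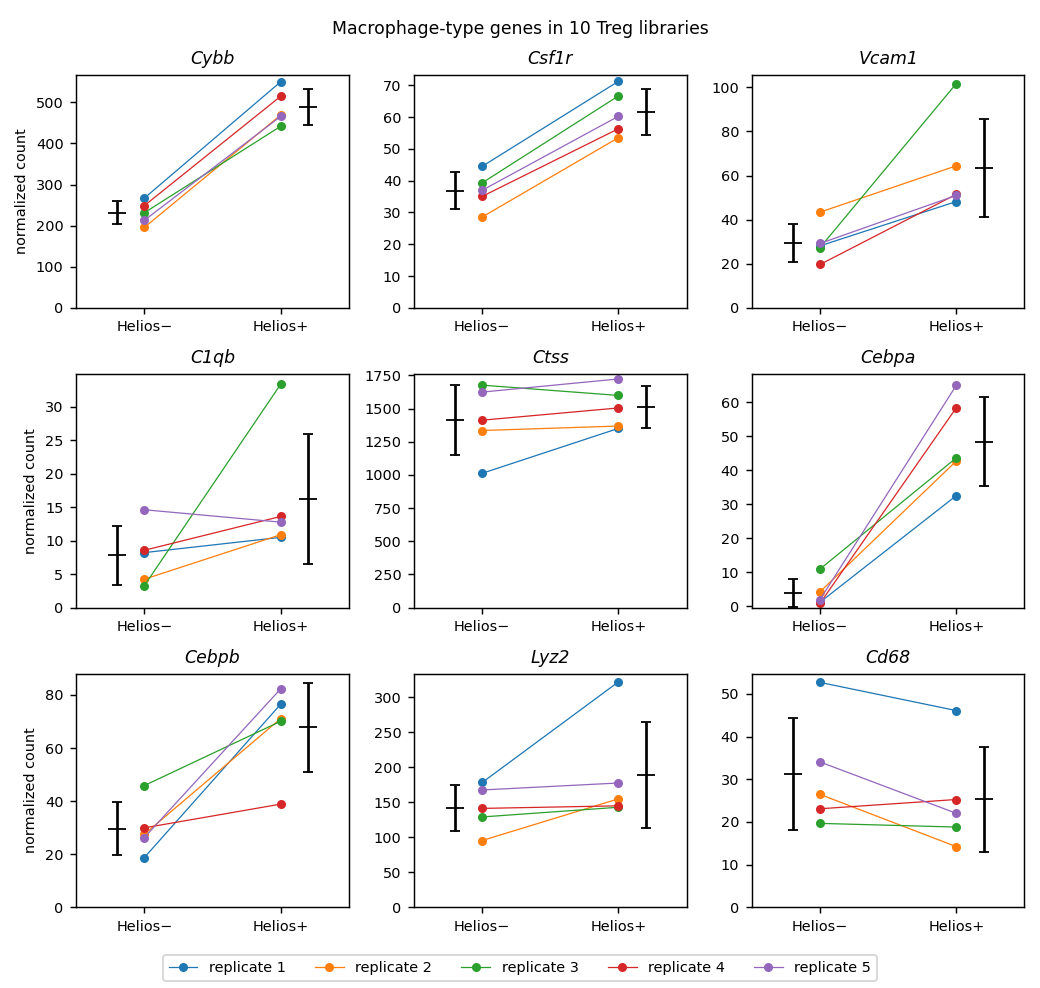
Normalized counts of the 9 genes (y axis, from 0 except for Cebpa, whose error bar reaches below it) in Helios- and Helios+ libraries (x axis). Points are libraries, lines join libraries of equal replicate number, and black bars show mean and SD of 5 libraries; the groups of Cybb, Csf1r, Vcam1 and Cebpa do not overlap.

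The transcription factor genes came first in size. Cebpa, at chr7:35119293-35121928 on the plus strand (GENCODE annotation of GRCm38), encodes C/EBPα, which directs progenitors into the myeloid lineage. In Helios- libraries 1 to 5 it had 1.17, 4.23, 10.9, 0.855 and 1.95 normalized counts, and in Helios+ libraries 1 to 5 it had 32.5, 42.7, 43.6, 58.3 and 64.9. The groups were far apart, and library 3 was the highest Helios- library. The Helios- values rested on 1, 4, 10, 1 and 2 reads, against 31 to 60 reads in the Helios+ libraries, so counting error alone is large in the former. The means were 3.83 ± 4.18 and 48.4 ± 13.04 (SD, n = 5 each), a 12.6-fold difference. The log2 change was 3.68 ± 0.44 (SE), with a limma adjusted p of 1.47e-05, and all 5 pairs of equal number had the higher value in Helios+.

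Cebpb, at chr2:167688915-167690418 on the plus strand, encodes C/EBPβ, a factor of macrophage activation that many other cells induce under inflammatory signals. Its values were 18.7, 27.5, 45.9, 29.9 and 26.3 normalized counts in Helios- libraries 1 to 5 and 76.5, 71.1, 70.1, 38.9 and 82.3 in Helios+ libraries 1 to 5. The groups overlapped only because Helios+ library 4 fell below Helios- library 3. The mean rose from 29.7 ± 9.98 to 67.8 ± 16.9 (SD, n = 5 each), 2.28-fold. The log2 change was 1.18 ± 0.24 (SE) with a limma adjusted p of 0.00181. In the annotation 20.7% of the exon bases of Cebpb are shared with Tmem189, and the strand setting of the authors' counting is not known from the sources used, which leaves its level uncertain to that extent.

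For the C/EBP genes and for Cybb, which were called higher, the 250 bases before the RefSeq start (GRCm38.p6) are shown beside those of Cd68, which was not called. All are printed 5′ to 3′ on the strand of the gene, and capitals mark matches to 2 short motifs, a C/EBP motif (TTGCNNAA on either strand) and the PU.1 core (GAGGAA on either strand), which do not overlap here. The windows lie at chr7:35119043-35119292 (plus), chr2:167688665-167688914 (plus), chrX:9469325-9469574 (minus) and chr11:69666171-69666420 (minus), and none holds an annotated exon base. The Cybb window lies inside the span of the GENCODE gene, in an intron.
Cebpa: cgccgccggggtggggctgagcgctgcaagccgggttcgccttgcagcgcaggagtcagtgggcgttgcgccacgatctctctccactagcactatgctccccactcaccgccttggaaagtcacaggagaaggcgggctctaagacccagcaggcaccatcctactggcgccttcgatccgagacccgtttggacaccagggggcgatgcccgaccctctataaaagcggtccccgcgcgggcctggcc
Cebpb: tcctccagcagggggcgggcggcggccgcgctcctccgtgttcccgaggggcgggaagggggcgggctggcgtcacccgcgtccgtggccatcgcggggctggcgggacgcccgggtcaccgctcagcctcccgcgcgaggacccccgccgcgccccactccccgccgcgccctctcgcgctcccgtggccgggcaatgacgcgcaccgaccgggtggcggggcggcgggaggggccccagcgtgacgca
Cybb: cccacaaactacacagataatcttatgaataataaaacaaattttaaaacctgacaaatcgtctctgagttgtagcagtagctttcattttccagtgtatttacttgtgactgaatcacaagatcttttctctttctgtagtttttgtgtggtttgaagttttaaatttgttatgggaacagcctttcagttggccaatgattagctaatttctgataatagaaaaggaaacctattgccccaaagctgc
Cd68: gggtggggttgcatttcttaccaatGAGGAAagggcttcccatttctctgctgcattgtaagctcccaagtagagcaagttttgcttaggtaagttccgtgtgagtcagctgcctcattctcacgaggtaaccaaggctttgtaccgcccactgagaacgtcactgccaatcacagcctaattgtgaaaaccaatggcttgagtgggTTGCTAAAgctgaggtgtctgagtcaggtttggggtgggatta
Of the 7 genes matched in the promoter table, 1 had the C/EBP motif, Cd68, compared with 9.6% of the 27025 promoters of the same length. The PU.1 core was present in 3 of the 7, C1qb, Ctss and Cd68, compared with 23.1% of all promoters. Thus the 3 called genes printed here held no exact match to either motif in these windows. A match or its absence only describes these letters. Sites that differ from the 2 motifs by a letter were not searched, so binding sites may be present without a match.

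Cybb, at chrX:9435252-9487771 on the minus strand, encodes gp91phox, the catalytic subunit of the phagocyte NADPH oxidase. It had 267, 196, 232, 249 and 213 normalized counts in Helios- libraries 1 to 5 and 550.1, 469, 442, 515 and 466 in Helios+ libraries 1 to 5. Every Helios+ library lay well above every Helios- library, and library 1 was the highest of both groups. The means were 231 ± 28.2 and 488 ± 43.5 (SD, n = 5 each), a 2.11-fold rise, with a log2 change of 1.08 ± 0.09 (SE) and a limma adjusted p of 4.46e-07. The exact two-sided permutation test gave 0.0079, the smallest p that 252 assignments allow, for Cybb and likewise for Csf1r, Vcam1 and Cebpa.

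Csf1r, the CSF1 receptor gene, had 44.5, 28.6, 39.3, 35.1 and 37.0 normalized counts in Helios- libraries 1 to 5 and 71.3, 53.5, 66.7, 56.3 and 60.3 in Helios+ libraries 1 to 5. The groups did not overlap, and library 1 was again the highest and library 2 the lowest of each group. The mean rose from 36.9 ± 5.84 to 61.6 ± 7.30 (SD, n = 5 each), 1.67-fold, with a log2 change of 0.73 ± 0.16 (SE) and a limma adjusted p of 0.00251. Of its annotated exon bases, 15.1% are shared with Hmgxb3, with the same uncertainty as for Cebpb.

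Vcam1, at chr3:116109949-116129688 on the minus strand, encodes an adhesion molecule that binds the integrin of ITGA4 and ITGB1. It had 28.1, 43.4, 27.3, 19.7 and 29.2 normalized counts in Helios- libraries 1 to 5 and 48.2, 64.4, 102, 51.5 and 51.0 in Helios+ libraries 1 to 5. The groups did not overlap, and Helios+ library 3 was the highest by a wide margin. The means were 29.5 ± 8.61 and 63.4 ± 22.3 (SD, n = 5 each), a 2.15-fold rise, with a log2 change of 1.06 ± 0.23 (SE) and a limma adjusted p of 0.00318. Over the 10718 genes tested, 11.2% had non-overlapping groups with Helios+ above, as Cebpa, Cybb, Csf1r and Vcam1 had.

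C1qb, at chr4:136880129-136886187 on the minus strand, encodes a chain of the complement recognition protein C1q. It had 8.20, 4.23, 3.28, 8.55 and 14.6 normalized counts in Helios- libraries 1 to 5 and 10.5, 10.9, 33.3, 13.6 and 12.7 in Helios+ libraries 1 to 5. Helios+ library 3 was far above the rest, and the groups overlapped through Helios- library 5. The means were 7.77 ± 4.48 and 16.2 ± 9.66 (SD, n = 5 each), and the log2 change of 0.99 (95% interval 0.12 to 1.85) did not pass, with a limma adjusted p of 0.0926. It passed without Helios- library 5, with a limma adjusted p of 0.0426, and in that setting 6 of the 9 genes were called. Of all 10738 genes tested in that setting, 1406 were called higher and 988 lower. With 3 to 39 reads a library, the level of C1qb is the least certain of the 9 beside that of Cebpa in Helios- cells.

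The lysosomal and lysozyme genes Ctss, Lyz2 and Cd68 did not pass limma's test without the replicate block. Ctss, at chr3:95526786-95556403 on the plus strand, encodes cathepsin S, the protease that trims the invariant chain of MHC class II. It had 1012, 1335, 1677, 1412.5 and 1624 normalized counts in Helios- libraries 1 to 5 and 1351, 1368, 1599, 1505 and 1723 in Helios+ libraries 1 to 5. The ranges lay largely over each other, and library 1 was the lowest of both groups. The log2 change was 0.11 (95% interval -0.15 to 0.37), with a limma adjusted p of 0.560. It turned to -0.0024 without Helios- library 1.

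Lyz2, at chr10:117277331-117282321 on the minus strand, encodes the lysozyme of macrophages and neutrophils. It had 178, 95.3, 129, 141 and 167 normalized counts in Helios- libraries 1 to 5 and 322, 155, 143, 145 and 177 in Helios+ libraries 1 to 5. Helios+ library 1 stood far above all others, and the remaining libraries overlapped. The log2 change was 0.36 (95% interval -0.12 to 0.84), with a limma adjusted p of 0.276. Without Helios+ library 1 the change was 0.15. Lyz2 was higher in Helios+ in 5 of 5 pairs of equal number. When the replicate number entered the limma model as a block, Lyz2 passed with an adjusted p of 0.0175, and 6 of the 9 genes were then higher. In that setting 37.3% of all genes were called in either direction and 18.9% as higher. Its near-identical paralog Lyz1 had 0 to 6.84 normalized counts in the 10 libraries, and how reads shared by both genes were counted is not known from the sources used, so the level of Lyz2 is uncertain in this respect.

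Cd68, at chr11:69664213-69666153 on the minus strand, encodes the lysosomal membrane glycoprotein macrosialin. It had 52.7, 26.5, 19.7, 23.1 and 34.1 normalized counts in Helios- libraries 1 to 5 and 46.1, 14.2, 18.8, 25.3 and 22.0 in Helios+ libraries 1 to 5. The groups overlapped, and library 1 was the highest of both. The log2 change was -0.32 (95% interval -0.98 to 0.35), with a limma adjusted p of 0.517, and Helios+ was higher in 1 of 5 pairs. The interval for Cd68 ends below the log2 changes of Cebpa, Cebpb, Cybb, Csf1r and Vcam1, but the differences between genes were not tested.

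To compare the genes with each other, reads were scaled by the annotated exon length and the size of the library (the usual RPKM scale). In Helios- cells the order of these levels per length ran from Ctss (mean 171) through Lyz2 (18.0), Cybb (6.62), Cd68 (4.17), Cebpb (3.22), C1qb (1.20), Csf1r (1.06) and Vcam1 (0.551) to Cebpa (0.228). In Helios+ cells it ran from Ctss (194) through Lyz2 (25.2), Cybb (14.7), Cebpb (7.86), Cd68 (3.55), Cebpa (3.21), C1qb (2.59) and Csf1r (1.87) to Vcam1 (1.24). Ctss stood above all others in every library of both groups. Neighbours whose ranges over 5 libraries overlapped were Cybb and Cd68, Cd68 and Cebpb, Cebpb and C1qb, C1qb and Csf1r, and Vcam1 and Cebpa in Helios- cells. In Helios+ cells every neighbouring pair from Cebpb down to Vcam1 overlapped. Cebpa moved from the last place to the sixth.

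**Figure D2:**
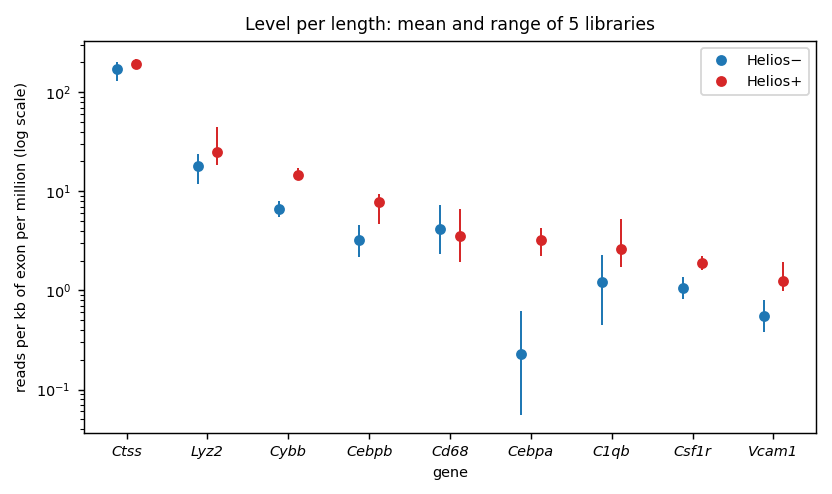
Level per length (y axis, log scale, RPKM from annotated exon lengths) of each gene (x axis) in Helios- and Helios+ cells, with points for means and lines for the range of 5 libraries. Ctss is the most abundant in both groups, and the Helios- and Helios+ ranges of Cebpa are the farthest apart.

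Reads of 1 source would keep the 9 genes in 1 ratio in every library, so the composition of their summed reads was examined. Ctss made up 62.8% to 76.8% of these reads in Helios- and 53.9% to 64.8% in Helios+ libraries. Cybb made up 9.92% to 16.6% in Helios- and 17.5% to 21.9% in Helios+ libraries, without overlap. The share of Cebpa was 0.0445% to 0.5003% in Helios- and 1.30% to 2.44% in Helios+ libraries, also without overlap. The share of Lyz2 was alike in range, with 5.41% to 11.1% and 5.67% to 12.8%. The ranges thus separated the groups for Cybb and Cebpa and overlapped for Ctss and Lyz2. Ctss holds most of these reads, so the share of each other gene also depends on Ctss. Shares would also shift if the Treg cells themselves expressed some of the genes, so they cannot show whether reads were carried over.

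Lyz2, Cd68 and Csf1r, chosen after the correlations between the genes were seen, were then set against Cybb as a description. For every 100 reads of Cybb, Lyz2 had 66.7, 48.6, 55.7, 56.7 and 78.5 reads in Helios- libraries 1 to 5 and 58.5, 33.0, 32.3, 28.1 and 38.1 in Helios+ libraries 1 to 5. Only Helios+ library 1 reached the Helios- range. Cd68 had 8.49 to 19.7 reads per 100 of Cybb in Helios- and 3.03 to 8.38 in Helios+ libraries, with no overlap. Csf1r kept closer to Cybb, with 14.1 to 17.4 reads per 100 in Helios- and 10.9 to 15.1 in Helios+ libraries. Within a group, the highest ratio of Csf1r to Cybb was 1.23 times the lowest in Helios- and 1.38 times in Helios+ libraries, against 2.33 and 2.77 times for Cd68 to Cybb.

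Covariation was then measured on the deviations of each gene from its group mean in the 10 libraries, which removes the difference between Helios+ and Helios-. Among the 36 pairs of the 9 genes, 19 had a Pearson r above 0 and 17 below 0, with a median r of 0.01 and a range of -0.73 to 0.76. With 100000 two-sided permutations of libraries within groups, 4 pairs had an unadjusted p under 0.05 and 0 passed Benjamini-Hochberg adjustment, the lowest adjusted p being 0.284. By Spearman's rho, 3 pairs had an unadjusted p under 0.05 and 0 passed. Positive and negative pairs were thus about equally frequent, and with 10 libraries an r of 0.76 did not pass adjustment over 36 pairs.

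**Figure D3:**
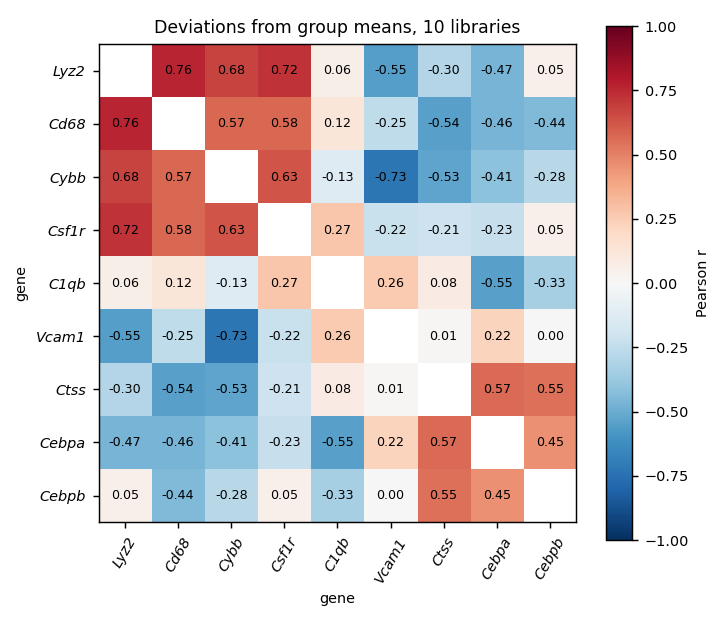
Pearson r (colour and printed value, from -1 to 1) between the deviations of each pair of genes from their group means over 10 libraries, with genes on both axes. In an order chosen after the values were seen, Lyz2, Cd68, Cybb and Csf1r form a block of positive values from 0.57 to 0.76. Vcam1, Ctss, Cebpa and Cebpb have mostly values near or below 0 with them.

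Of the 4 pairs with an unadjusted p under 0.05, 3 were among Cybb, Csf1r, Lyz2 and Cd68. Lyz2 and Cd68 had r = 0.76 (permutation p = 0.0263) and rho = 0.58 (permutation p = 0.107), and without the 2 libraries farthest from the median of Lyz2, r was 0.71 (permutation p = 0.113). Cybb and Lyz2 had r = 0.68 (permutation p = 0.0316) and rho = 0.70 (permutation p = 0.0362), with r = 0.76 (permutation p = 0.0391) without the 2 libraries farthest from the median of Cybb. Csf1r and Lyz2 had r = 0.72 (permutation p = 0.0167) and rho = 0.64 (permutation p = 0.0670). For Csf1r and Lyz2 r was 0.25 without the 2 libraries farthest from the median of Csf1r, 0.58 without the 2 libraries of largest deviation, and 0.61 to 0.86 when 1 library was left out. All 6 pairs among these 4 genes had r from 0.57 to 0.76. The 4 genes were grouped after their correlations were seen, so positive values among them describe that choice and are not a test.

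These 4 genes shared 1 feature, which was that library 1 was the highest of both groups for each of them. Cd68 deviated by 0.82 and 0.95 on the log2 scale in Helios- and Helios+ library 1, Lyz2 by 0.36 and 0.84, Csf1r by 0.28 and 0.21, and Cybb by 0.22 and 0.18. Without both libraries numbered 1, the r values among the 4 genes ranged from -0.11 to 0.56. With the replicate number as a block they ranged from -0.85 to 0.62, and the r of Lyz2 and Cd68 turned to -0.38. The common movement of Cybb, Csf1r, Lyz2 and Cd68 was thus smaller without the libraries of 1 replicate number, a choice made after their values were seen.

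**Figure D4:**
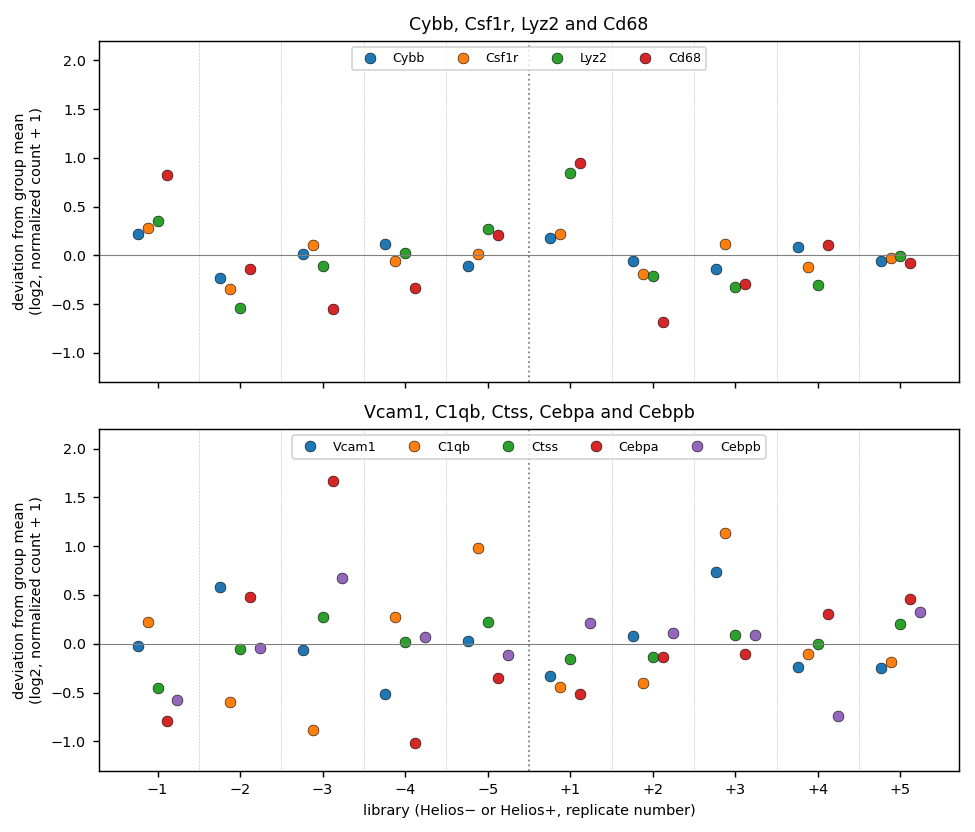
Deviation of each gene from its group mean (y axis, log2 of normalized count + 1) in Helios- libraries 1 to 5 and Helios+ libraries 1 to 5 (x axis), 1 point per library. In the upper panel all 4 genes lie above 0 in both libraries numbered 1, up to 0.95 for Cd68. In the lower panel Vcam1, Ctss and Cebpa lie below 0 in both of these libraries, and C1qb and Cebpb lie above 0 in 1 of them.

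Pairs with the remaining genes had r values of both signs. Cybb and Vcam1 deviated in opposite directions, with r = -0.73 (permutation p = 0.0233) and rho = -0.68 (permutation p = 0.0405), and with r = -0.59 (permutation p = 0.171) without the 2 libraries farthest from the median of Cybb. Their adjusted p of 0.284 did not pass. Without both libraries numbered 1 the r of Cybb and Vcam1 was -0.86 (permutation p = 0.0202), and that of Csf1r and Ctss turned from -0.21 to 0.82 (permutation p = 0.0209). Cebpa was below its group mean in both libraries numbered 1, by 0.79 and 0.52 on the log2 scale, and its r with Cybb, Csf1r, Lyz2 and Cd68 lay between -0.47 and -0.23. By rank, Cebpa and Lyz2 deviated in opposite directions, with rho = -0.67 (permutation p = 0.0354) but r = -0.47 (permutation p = 0.137), and r = -0.42 without the 2 libraries farthest from the median of Cebpa. The pair of C/EBP genes, Cebpa and Cebpb, had r = 0.45 (permutation p = 0.239) and rho = 0.35 (permutation p = 0.381), and r = 0.36 without 2 such libraries. C1qb and Vcam1, the genes of resident macrophages, were both highest in Helios+ library 3, but over the 10 libraries they had r = 0.26 (permutation p = 0.492) and rho = 0.13 (permutation p = 0.745), and r = -0.28 without the 2 libraries farthest from the median of Vcam1.

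Library 1 also stood out for lists of other cell types. The summed level of 9 B cell genes was the highest in library 1 of both groups, with 2729 in a Helios- range of 1816 to 2729 and 2262 in a Helios+ range of 1535 to 2262. The summed levels of 8 monocyte genes, 29 further macrophage genes and 3 platelet genes were likewise highest in library 1 of both groups. The monocyte sum was 497 in Helios- library 1 and 433 in Helios+ library 1, in ranges of 201 to 497 and 205 to 433. The summed level of 9 T cell and Treg genes was the lowest in library 1 of both groups, with 20202 in a Helios- range up to 25990 and 22910 in a Helios+ range up to 26827. This was not particular to T cell genes. The sums of NADPH oxidase partners, of cathepsin and lysosome genes and of VCAM1 ligands and adhesion genes were also lowest there. So was the total of normalized counts over all genes, with 5.71e+06 in Helios- and 5.54e+06 in Helios+ library 1. The part of other cell types in the values of Cybb, Csf1r, Lyz2 and Cd68 was not tested.

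Each of the 9 genes was correlated with 4 of these sums, as deviations from group means over 10 libraries. Of 36 relations, 10 had an unadjusted permutation p under 0.05 and 0 passed adjustment, with a lowest adjusted p of 0.0688. By Spearman's rho 6 had an unadjusted p under 0.05 and 0 passed. Csf1r had r = 0.86 with the summed macrophage genes (permutation p = 0.00387) and rho = 0.83 (permutation p = 0.00885), and r = 0.69 without the 2 libraries farthest from the median of the sum. Cybb had r = 0.90 with the B cell sum (permutation p = 0.00191) and rho = 0.79 (permutation p = 0.0131). Its r with that sum was 0.90 without 2 such libraries and 0.80 without both libraries numbered 1. Between the groups, Cybb was higher in Helios+ cells, while the B cell sum was 1816 to 2729 in Helios- and 1535 to 2262 in Helios+ libraries. Ctss had r = 0.86 with the T cell and Treg sum (permutation p = 0.00612) and rho = 0.84 (permutation p = 0.00898), with r = 0.74 without 2 such libraries. Cybb, Lyz2 and Cd68 also had positive r with the macrophage sum, of 0.75, 0.83 and 0.79 (permutation p = 0.0163, 0.0119 and 0.0176), and rho of 0.55, 0.73 and 0.68 (permutation p = 0.128, 0.0273 and 0.05004). Without the 2 libraries farthest from the median of that sum their r was 0.38, 0.25 and 0.77, and without both libraries numbered 1 it was 0.47, 0.53 and 0.32, against 0.77 for Csf1r. Over all 10 libraries Cybb, Csf1r, Lyz2 and Cd68 thus had r of at least 0.75 with the macrophage sum, without passing adjustment. The most abundant genes in that sum were Apoe, Axl and Lgmn, with means of 212, 111 and 99.7 normalized counts. Lyz2 and Cd68 had r of 0.74 and 0.83 with the monocyte sum (permutation p = 0.0248 and 0.0134) and rho of 0.43 and 0.53 (permutation p = 0.247 and 0.145), and r of 0.13 and 0.22 without both libraries numbered 1, the farthest from the median of that sum. The other 2 relations with an unadjusted p under 0.05 were negative, with r = -0.78 for Ctss and the monocyte sum (permutation p = 0.0140, rho = -0.79, permutation p = 0.0154) and r = -0.785 for Cd68 and the T cell and Treg sum (permutation p = 0.0128, rho = -0.53, permutation p = 0.144). Without the 2 libraries farthest from the median of the sum, these r values were -0.47 and -0.80. Without both libraries numbered 1, the relation of Cybb with the B cell sum was the 1 relation with an unadjusted p under 0.05.

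Macrophage genes beyond the 9 gave a divided picture. Of 32 such genes, 29 were in the table and 16 were tested, with 5 called higher and 1 called lower, and with a median log2 change of 0.29. Over all genes tested, 14.1% were called higher and 10.7% lower. Axl, a receptor tyrosine kinase for the clearance of apoptotic cells, rose from 32.1 ± 4.98 to 191 ± 26.6 normalized counts (SD, n = 5 each), with a log2 change of 2.54 and a limma adjusted p of 5.52e-09. The mannose receptor gene Mrc1 rose by 1.25, the heme oxygenase gene Hmox1 by 1.06 and the iron exporter gene Slc40a1 by 1.52 on the log2 scale, with limma adjusted p of 0.00267, 0.00353 and 0.00638. Cd163, the hemoglobin scavenger receptor gene, rose by 1.33 with a limma adjusted p of 0.0433, and this call was lost without any 1 of Helios- libraries 3, 4 and 5 and Helios+ libraries 2, 4 and 5, with an adjusted p up to 0.101. The legumain gene Lgmn fell by 0.66 on the log2 scale with a limma adjusted p of 0.00104.

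Other macrophage markers were low and did not separate the groups. The F4/80 gene Adgre1, listed under an older symbol in the table, had 4.87 to 14.5 normalized counts in Helios- and 5.80 to 25.1 in Helios+ libraries. The log2 change of Adgre1 was 0.45 with a limma adjusted p of 0.476. The PU.1 gene Spi1 had 30.2 to 49.6 in Helios- and 25.1 to 49.3 in Helios+ libraries, with a log2 change of -0.25 and a limma adjusted p of 0.424. Cd14, Fcgr1, Timd4 and Msr1 were at 0 in at least 1 library and had group means from 0.902 to 2.79 normalized counts. Marco and Siglec1 had group means from 2.94 to 3.70. The summed level of the 29 macrophage genes was 604 to 869 in Helios- and 849 to 1257 in Helios+ libraries. Without Axl, a choice made after its value was seen, these ranges were 581 to 836 and 699 to 1069, and their part in the changes of Cebpa, Cybb, Csf1r and Vcam1 was not tested.

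**Figure D5:**
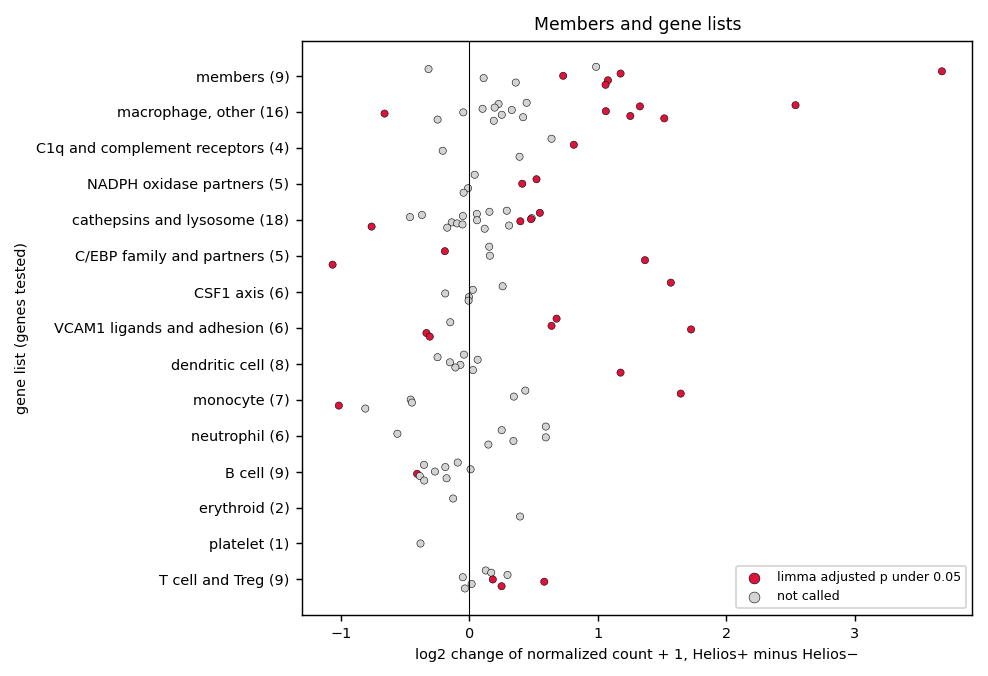
Log2 change from Helios- to Helios+ cells (x axis, log2 of normalized count + 1) of each tested gene in the 9 genes and in 14 further lists (y axis, number of genes tested in brackets), with red points for a limma adjusted p under 0.05. Of the 9 genes, 5 are called higher, of the 16 further macrophage genes 5 higher and 1 lower, and the lists of neutrophil, erythroid and platelet genes hold no called gene. Over all genes tested, 14.1% are called higher and 10.7% lower.

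The partners of the 9 genes were examined by role. The counts in the lists below stand beside 14.1% of all genes called higher and 10.7% lower. With the replicate number as a block these shares were 18.9% and 18.5%. No count was tested against them. Of 5 NADPH oxidase partners of Cybb counted here, 2 were higher and none lower, with a median log2 change of 0.04. The cytosolic subunit genes Ncf4 and Ncf1 rose by 0.41 and 0.52 on the log2 scale, with limma adjusted p of 0.00206 and 0.0217. The call of Ncf1 was lost without any 1 of Helios- library 2 and Helios+ libraries 4 and 5 (adjusted p up to 0.0628). Cyba, which encodes the membrane partner of gp91phox, had a log2 change of 0.04 and a limma adjusted p of 0.857.

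In the CSF1 pathway, 1 of 6 tested genes was higher and none lower, while under the replicate block Inpp5d, which encodes the phosphatase SHIP1 and was named after its value was seen, was lower as well. The higher gene was the ligand gene Csf1, which rose 3.03-fold from 56.4 ± 6.77 to 171 ± 30.4 normalized counts (SD, n = 5 each), with a limma adjusted p of 6.60e-07. Transcripts of ligand and receptor were therefore both higher in the Helios+ libraries, Csf1r by 1.67-fold. Which cells in these bulk libraries held them was not tested.

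Among 6 genes for binding partners of VCAM1 and other adhesion molecules, 3 were higher and 2 lower. Itgb1 and Itga4, which encode the integrin that binds VCAM1, rose 3.32-fold and 1.55-fold, with limma adjusted p of 1.10e-09 and 1.43e-05, and Icam1 rose 1.61-fold with 2.75e-05. Itgb7, the other beta chain that pairs with the product of Itga4, fell by 0.33 on the log2 scale with a limma adjusted p of 0.00153. Selplg, the P-selectin ligand gene, fell by 0.31 with a limma adjusted p of 0.0490, a call that held in leave-one-out only without Helios- library 1 or Helios+ library 3 and otherwise had an adjusted p up to 0.116.

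Of the 5 tested genes in the list of C/EBP genes and their partners, 1 was higher and 2 were lower. Trib1 and Trib2 encode related pseudokinases and changed in opposite directions. Trib1 rose from 98.8 ± 29.8 to 252 ± 60.1 normalized counts, with a limma adjusted p of 0.000112. Trib2, the more abundant, fell from 2296 ± 164 to 1097 ± 57.4, with a limma adjusted p of 1.24e-08 (SD, n = 5 each). Cebpz fell by 0.19 on the log2 scale with a limma adjusted p of 0.0399, and this call was lost without any 1 of Helios- libraries 2 and 5 and Helios+ libraries 2 to 5, with an adjusted p up to 0.104, and edgeR did not call Cebpz. Cebpd stayed under the minimum for testing, with 0 to 4.23 normalized counts in Helios- and 0 to 6.84 in Helios+ libraries.

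Around Ctss and Cd68, 3 of 18 cathepsin and lysosome genes were higher and 1 was lower, with a median log2 change of 0.06. Together these were 4 of 18, near the 24.8% of all genes called in either direction. The cathepsin D gene Ctsd, named after its value was seen, had a log2 change of -0.37 and a limma adjusted p of 0.0512, and edgeR and DESeq2 called it lower. With the replicate number as a block, 5 were higher and 3 lower, where 18.9% of all genes were called higher and 18.5% lower. Ctsb rose by 0.55, Ctsz by 0.48 and the progranulin gene Grn by 0.40 on the log2 scale, with limma adjusted p of 0.00276, 0.00188 and 0.0246. The call of Grn was lost without any 1 of libraries 1 and 2 of Helios- and libraries 2 and 4 of Helios+, with an adjusted p up to 0.0665. The cholesterol carrier gene Npc2 fell by 0.76 with a limma adjusted p of 0.000728. Ctss and Cd68 themselves were not called in any of these settings.

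Around C1qb, 1 of 4 tested complement genes was higher and none lower. It was C3, with a log2 change of 0.81 and a limma adjusted p of 0.0272, a call lost without any 1 of Helios- library 2 and Helios+ libraries 1 and 4, with an adjusted p up to 0.0615. The other C1q chains were as low as C1qb. C1qa had 6.44 ± 1.27 and 10.2 ± 2.14 normalized counts in the Helios- and Helios+ libraries (SD, n = 5 each), in non-overlapping groups but under the minimum for testing when averaged over all libraries. C1qc had 8.40 ± 4.26 and 13.5 ± 5.90, with a log2 change of 0.64 and a limma adjusted p of 0.269.

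Markers of other cell types were counted against the 24.8% of all genes called in either direction. Of 6 neutrophil genes, 2 erythroid genes and 1 platelet gene tested, limma, edgeR and DESeq2 called 0, and 0 had an unadjusted limma p under 0.05. Of 9 B cell genes, Ebf1 alone was called, with a log2 change of -0.41 and a limma adjusted p of 0.0293. The call of Ebf1 was lost without any 1 of libraries 1 and 4 of Helios- and libraries 2 to 5 of Helios+, with an adjusted p up to 0.0830. Of 8 dendritic cell genes, Zbtb46 alone was called, with a log2 change of 1.18 and a limma adjusted p of 0.0348, lost without any 1 of libraries 2, 4 and 5 of Helios- and libraries 1, 2 and 5 of Helios+ (adjusted p up to 0.0780). With the replicate number as a block, 5 of the 9 B cell genes passed as lower in Helios+ cells, where 18.5% of all genes did. In that setting 1 dendritic cell gene was also lower, the class II transactivator gene Ciita, named after its value was seen. Of 7 monocyte genes, 1 was higher and 1 lower. F13a1 rose by 1.65 on the log2 scale with a limma adjusted p of 0.00203. Ms4a6c fell by 1.01 with a limma adjusted p of 0.0312, lost without any 1 of Helios- library 2 and Helios+ libraries 3, 4 and 5 (adjusted p up to 0.0717). The 4 stromal and endothelial genes in the table were all under the minimum for testing, and their sum was 3.18 to 14.2 in Helios- and 10.4 to 29.3 in Helios+ libraries.

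Of 9 T cell and Treg genes, 3 were higher and none lower, where 14.1% of all genes were called higher. With the replicate number as a block 5 of them were higher, where 18.9% of all genes were. Il2ra, Ctla4 and Cd5 rose by 0.25, 0.58 and 0.18 on the log2 scale, with limma adjusted p of 0.0249, 0.0322 and 0.0498. The call of Il2ra was lost without any 1 of Helios- library 4 and Helios+ libraries 2 to 5, with an adjusted p up to 0.0693. That of Ctla4 was lost without any 1 of Helios- libraries 1, 3, 4 and 5 and Helios+ libraries 2 and 5, with an adjusted p up to 0.0799. That of Cd5 was lost without any 1 library other than Helios- library 3 and Helios+ library 1, with an adjusted p up to 0.136.

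Among genes with a mean of at least 50 normalized counts, those whose deviations from the group means were most like those of a given gene were named, with Pearson r over the same 10 libraries as the measure. They were Map4k1 for Cybb (r = 0.97), Lrrc8d for Csf1r (0.94), 1700081L11Rik for Vcam1 (0.96), Tmem129 for C1qb (0.88) and Nmi for Ctss (0.99). They were AI597468 for Cebpa (0.96), Fbxo8 for Cebpb (0.94), Sh3bp2 for Lyz2 (0.93) and Smpd4 for Cd68 (0.98). Other genes among the 3 most like were Lrrfip2 and Chfr for Cybb, Mtmr4 for Csf1r, Cdkn1b and Crot for Vcam1, Dcaf4 and Rhbdd2 for C1qb, and Sp1 and Ptprcap for Ctss. For the remaining genes they were Cbx2 and BC031781 for Cebpa, Cdk2ap2 and Prdx1 for Cebpb, Ncbp2 for Lyz2, and A530088E08Rik and Usp8 for Cd68. No gene was named for more than 1 of the 9, and none of the named genes was itself among the 9, although only Cybb, Ctss and Lyz2 passed the minimum. With 10 libraries and 8497 genes compared at most, these are descriptions without a test.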

How the data were processed

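Stranded SMARTer total RNA libraries were made from column-purified, DNase I treated RNA of 5 Helios- and 5 Helios+ Treg samples, per the labels' protocols. The submitters' processing notes name mm10, HISAT2 2.0.4, HTSeq and DESeq2 without their roles, and the annotation, strand setting and gene filter are not known from the sources used. The authors deposited 1 table of normalized counts, a signal that is never negative. In each library 100% of values were whole multiples of what 1 read is worth (tolerance 0.001), so reads were recovered, and recomputed size factors differed by at most 3.3e-15 in relative terms.

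Genes with a mean of at least 10 normalized counts (10718 of 13252) were tested with limma 3.58.1 (R 4.3.3, trend and robust) on log2(normalized count + 1). The group was the only term, and p-values were adjusted after Benjamini and Hochberg. Calls had an adjusted p under 0.05, and changes are Helios+ minus Helios- on that log2 scale, where the added 1 shrinks the changes of low genes. The method was tested on simulated data. Alternatives were TMM and quantile scaling, pseudocounts of 0.5 and 5, no filter, a mean of at least 50, edgeR 4.0.16 and DESeq2 1.42.0 on recovered reads, the replicate number as a block, and leaving out each library. Leaving out both libraries numbered 1, correlating the genes with list sums and grouping Cybb, Csf1r, Lyz2 and Cd68 were chosen after seeing the data.

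Samples of both groups carry numbers 1 to 5. Deviations of equal-numbered libraries from their group means correlated across genes by 0.48, 0.19, 0.39, 0.16 and 0.15, each above the minimum of 0.1. Equal numbers were therefore taken to pair the samples. The main limma test did not use this pairing, while the fit with the replicate number as a block did. Correlations between genes used 100000 permutations within groups, which treat libraries as separate that may share a source.

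The 9 genes and all lists were chosen with earlier results of these data known. Of 163 genes in the lists, the 9 included, 141 were found by symbol, 4 by an older symbol through RefSeq synonyms, and 18 are not analysed here. Named genes were the 9, the 4 genes with the smallest p among those called in each list, the 2 most abundant of each cell type list, and the 3 genes most like each of the 9; Slc40a1, Cd163, Selplg, Adgre1, Spi1, Cyba, the C1q chains, Cebpd and the low macrophage markers were named after their values were seen. Some genes that these rules or the original lists took are not reported, and list counts leave them out. Exon lengths and overlaps came from the GENCODE annotation of GRCm38 and promoters from RefSeq. Values rest on 4872348 to 6948692 reads a library, and counting error is largest for Cebpa and C1qb.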

Additional observations from a re-analysis of the deposited data

Results flagged for a closer look

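In groups of 5 libraries, a library stands apart where its gap to the nearest library exceeds 0.71 of the whole range. Of 100 groups examined, 9 held such a library, and chance gives about 1 in 20. Among the 9 genes this was so in 3 of 18 groups: C1qb was highest in Helios+ replicate 3 with 33.3 normalized counts, Cebpb lowest in Helios+ replicate 4 with 38.9, and Lyz2 highest in Helios+ replicate 1 with 321.7.

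Other genes were also highest in Helios+ replicate 1, namely Apoe with 319.6 and Lgmn with 97.5 normalized counts. In Helios+ replicate 2, Ctla4 was highest with 2031 and Trib1 with 358.8, while Ctsz was lowest with 199.9. Axl was lowest in Helios- replicate 2 with 23.3 normalized counts.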

How the results depend on the processing

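Of the 9 genes, 5 were called under TMM and quantile scaling, both other pseudocounts, no filter, edgeR and DESeq2, and without both libraries numbered 1. With the replicate number as a block 6 were called, Lyz2 being added, and leaving out 1 library gave 5 to 6. With a mean of at least 50 normalized counts, 1 of 3 tested genes was called, since that minimum leaves out Cebpa, Cebpb, Csf1r, Vcam1, C1qb and Cd68. The number of gene pairs that passed adjustment was 0 in every setting, the replicate block included, and the r of Lyz2 and Cd68 was -0.38 with that block. The log2 changes of Ctss, Cd74, S100a9, Hbb-bs, Foxp3 and Alas2, none of them called, changed sign in some settings. Under quantile scaling Cd74 was at 0.048 and S100a9 at -0.046. Leaving out libraries moved Ctss between -0.0024 and 0.18, Cd74 between -0.107 and 0.027, S100a9 between -0.085 and 0.42, Hbb-bs between -0.076 and 0.94, Foxp3 between -0.0051 and 0.049, and Alas2 between -0.91 and 0.41. The cause was not tested for these. Over all genes the main test called 1512 higher and 1143 lower, quantile scaling 1384 and 1340, and the block 2021 and 1979. Without Helios- library 5 these counts were 1406 and 988. With a mean of at least 50 they were 1081 and 1038 of 8497 tested. Depth limits C1qb and, in Helios- cells, Cebpa, whose libraries held 1 to 10 reads.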
